A study of Mus musculus with 24 samples.

Results

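Tnfrsf19, Tnfrsf11b, Tnfrsf12a and Tnfrsf21 are 4 receptors of the tumour necrosis factor (TNF) receptor family that were picked out of 37620 genes because their RNA changed in these mouse jejunal crypts. They were selected on their measured RNA levels in all 8 groups of genotype and day, so their levels and fold changes below are a description with no test. Rows were taken by symbol, and all 4 genes passed the filter on low counts, which left 16552 genes. The rule had no numeric threshold, so there are no members just inside or outside it. Polyadenylated RNA was sequenced from 24 mice, 3 of each genotype on each day. The genotypes are ApccKO;NlecKO (here the double knockout), ApccKO, NlecKO and Control, where cKO stands for conditional knockout of Apc or of Nle1, the gene of Notchless. All mice, Controls included, were given 56 mg/kg tamoxifen into the peritoneum on 3 consecutive days at 5 to 10 weeks of age, and induction preceded crypt isolation by 24 h on day 1 and by 48 h on day 2. The Cre driver, and with it which cells can lose the genes, is not given in the sources used here.

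TNF receptors are proteins that bind TNF-type ligands through cysteine-rich repeats outside the cell. Some, the death receptors, carry a death domain inside the cell that can start apoptosis, others recruit TRAF adaptors that lead to NF-kB, and a few are decoys that bind ligand without signalling. In the intestine Tnfrsf19, also called Troy, marks crypt base stem cells and is a Wnt target. Apc is part of the complex that destroys beta-catenin, so its loss turns the Wnt pathway on, and Nle1 is needed to mature the large ribosomal subunit.

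Library totals were 17.86 to 26.47 M estimated counts, and values are CPM, counts scaled to a library of 1 M, unless TPM, the same per transcript length, are named. Nle1 itself was at 4.81 to 12.3 CPM in the libraries labelled NlecKO or double knockout, against 20.1 to 39.8 CPM in those with Nle1 present. Apc RNA lay between 112 and 158 CPM in every library, so its level does not check the Apc labels. All 8 epithelial markers were detected in every library. Summed over 16 stromal and endothelial markers, libraries held 15.1 to 67.7 CPM, of which 9, such as Col1a1, Pdgfrb, Pecam1 and Vim, were at 0 in no library, and the other 7 were at 0 in 2 (Acta2, Kdr) to 13 (Lum) of the 24. The submitters' codes put the Apc-lost mice in 1 run between 2 runs of Apc-intact mice, so a position in that run cannot be told apart from Apc loss. Within each Apc state the codes of day 1 come before those of day 2, so position cannot be told apart from day either. The predicted genes Gm8730 and Gm9625 were below 1 CPM in 3 libraries of day 1, namely replicates 2 and 3 of ApccKO and replicate 3 of the double knockout, while the lowest value among the other 21 was 29.4 CPM. Lct, 1 of the enterocyte markers used below, was at 454, 295 and 445 CPM in the same 3 libraries. In the other Apc-lost libraries of day 1 it was at 64.1, 93.4 and 82.6 CPM. Without those 3, ApccKO on day 1 is a single library, and the receptors' fold changes and the list counts that use them are given with and without them. In whole crypts, fewer cells of a type and less RNA per cell cannot be told apart.

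**Figure D1:**
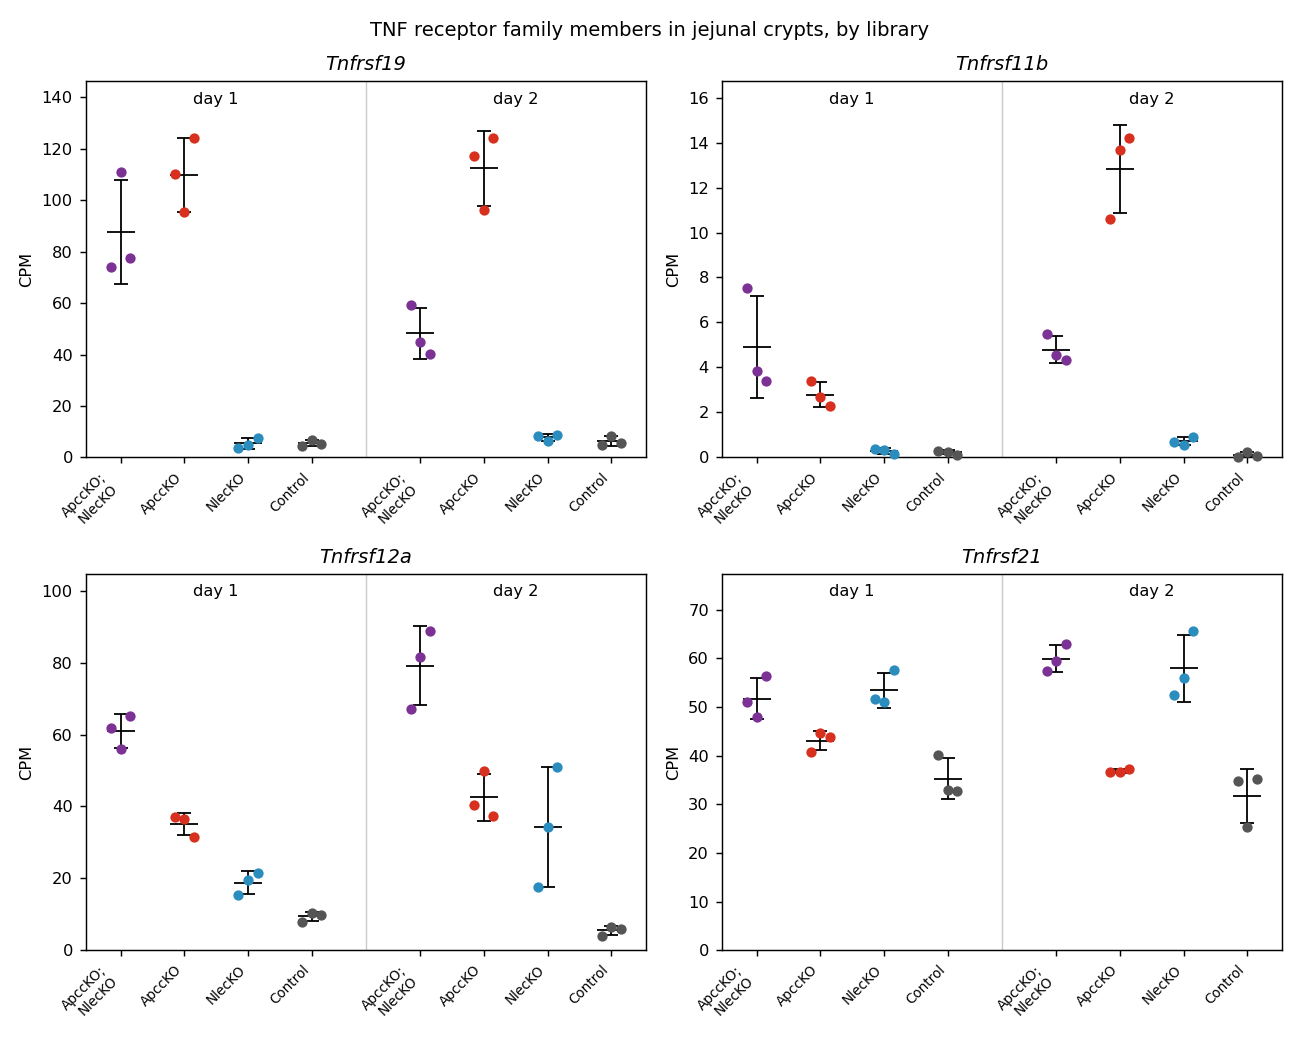
CPM (linear axis) of the 4 receptors in each of 24 libraries, by day and genotype; points are mice, the long tick is the mean and the bar is 1 SD (n = 3). Tnfrsf19 and Tnfrsf11b are high in the Apc-lost groups, Tnfrsf12a is highest in the double knockout and lowest in Control, and Tnfrsf21 is higher in both groups without Nle1 than in the Nle1-present groups of the same day.

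Tnfrsf19 was the receptor with the clearest split by Apc state: it was over an order of magnitude higher in ApccKO than in Control crypts on both days, and on day 2 the double knockout held less of it than ApccKO did. The gene (ENSMUSG00000060548) has its upstream windows on chromosome 14 in GRCm38.p6. The 250 bases before each of its 2 RefSeq start sites are shown because TCF/LEF factors, the DNA-binding arm of the Wnt pathway, have a short known motif that could be looked for there, and capitals mark the match.

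Tnfrsf19 start 1, chr14:61046856-61047105, minus strand: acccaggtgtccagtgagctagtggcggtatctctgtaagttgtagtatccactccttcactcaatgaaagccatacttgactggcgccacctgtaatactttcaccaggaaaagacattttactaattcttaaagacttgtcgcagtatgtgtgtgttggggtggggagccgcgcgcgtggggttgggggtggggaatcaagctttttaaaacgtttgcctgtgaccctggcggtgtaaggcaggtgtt
Tnfrsf19 start 2, chr14:61037988-61038237, minus strand: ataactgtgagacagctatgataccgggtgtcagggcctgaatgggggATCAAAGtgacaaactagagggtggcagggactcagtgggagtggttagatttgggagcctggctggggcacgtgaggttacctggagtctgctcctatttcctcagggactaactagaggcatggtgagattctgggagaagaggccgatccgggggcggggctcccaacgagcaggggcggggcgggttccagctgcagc

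The TCF/LEF letters searched on both strands were CTTTGAA and CTTTGAT. The second start holds 1 match, ATCAAAG on the strand shown (CTTTGAT on the other), 202 to 196 bases before the start, and the first holds none. Of 32851 windows of the same length in the RefSeq table, 7.48% hold such letters. Windows were found for 3 of the 4 receptors, with none for Tnfrsf11b. The single windows of Tnfrsf12a (chr17:23677450-23677699) and Tnfrsf21 (chr17:43016305-43016554) hold no TCF/LEF match. No window of the 3 receptors holds the AP-1 letters TGANTCA (6.75% of all windows do), the NF-kB consensus (3.9%) or the p53 half-site (7.13%). The 1 TCF/LEF match is the only match in these windows, and it is a description of letters only.

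On day 1, Tnfrsf19 stood at 74.2, 111 and 77.7 CPM in the double knockout, at 110, 95.4 and 124 CPM in ApccKO, at 3.82, 4.93 and 7.73 CPM in NlecKO, and at 4.64, 6.94 and 5.11 CPM in Control. All Apc-lost libraries lay above all Apc-intact ones, and within each Apc state the groups overlapped. The log2 change was 4.3 ± 0.27 (SE) for ApccKO over Control, a ratio of 19.7. It was 3.99 ± 0.27 for the double knockout over NlecKO. Without the 3 libraries these were 4.32 and 4.08. Loss of Nle1 gave -0.32 ± 0.23 with Apc lost (-0.25 without the 3 libraries) and -0.01 ± 0.28 with Apc intact.

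On day 2, Tnfrsf19 stood at 59.4, 44.9 and 40.4 CPM in the double knockout, at 117, 96.2 and 124 CPM in ApccKO, at 8.41, 6.35 and 8.91 CPM in NlecKO, and at 4.77, 8.53 and 5.62 CPM in Control. The double knockout libraries all lay below the ApccKO ones and all above both Apc-intact groups. The level in the double knockout was 0.429 of that in ApccKO, a log2 change of -1.22 ± 0.23, while NlecKO over Control gave 0.3 ± 0.26 with overlapping groups. The difference between these effects of Nle1 loss was -1.52 ± 0.35 on the log2 scale on day 2, and -0.31 ± 0.36 on day 1 (-0.24 without the 3 libraries). ApccKO over Control remained at 4.13 ± 0.27, a ratio of 17.6. Between days, the double knockout was lower on day 2 than on day 1 with no overlap, by a log2 change of -0.86 ± 0.23 (-0.94 without the 3 libraries), and the other genotypes overlapped across days.

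The summed level of 10 stem cell markers was higher in ApccKO than in Control on both days, as Tnfrsf19 was. Also like Tnfrsf19, this sum was higher in the double knockout than in NlecKO on both days. On day 2 it was lower in the double knockout than in ApccKO, again as for Tnfrsf19, but other comparisons differed. It was 4050 to 5920 CPM in the double knockout, 7880 to 8120 in ApccKO, 1670 to 1840 in NlecKO and 1890 to 2680 in Control on day 1. On day 2 it was 2080 to 2490 CPM in the double knockout, 4990 to 5580 in ApccKO, 1460 to 1990 in NlecKO and 2140 to 2810 in Control. ApccKO had a lower sum on day 2 than on day 1 while its Tnfrsf19 overlapped between days. On day 1 the double knockout lay below ApccKO in the sum while the Tnfrsf19 values overlapped. The double knockout of day 2 overlapped Control in the sum but not in Tnfrsf19. Abundant markers weigh most in the sum, with Olfm4 at 267 to 4870 CPM over the libraries and Ascl2 at 10.5 to 66. For the double knockout against ApccKO on day 1, the median log2 change of the 10 markers was -0.37, against -0.32 for Tnfrsf19. The share of stem cells in the Tnfrsf19 differences was not tested.

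Lgr5, the R-spondin receptor that defines the same crypt base stem cells and to which Troy is known to bind, is the closest partner of Tnfrsf19 among the genes listed. It was at 81.4, 158 and 72 CPM in the double knockout, 220, 174 and 200 in ApccKO, 19.6, 23.8 and 28.1 in NlecKO and 29.4, 35.3 and 32.5 in Control on day 1. Day 2 levels were 41.7, 38 and 28.6 CPM in the double knockout, 258, 158 and 230 in ApccKO, 25.4, 18.6 and 17.7 in NlecKO and 28.1, 36.1 and 26.4 in Control. Lgr5 rose in ApccKO over Control by 2.61 ± 0.27 on day 1 and 2.83 ± 0.27 on day 2 (log2, edgeR adjusted p = 7.9e-07 and 9.8e-08). It fell in the double knockout relative to ApccKO by 2.58 ± 0.26 on day 2 (adjusted p = 1.3e-06). The same comparison on day 1 gave -0.93 ± 0.25 (adjusted p = 0.023), a call that ended without the 3 libraries (-0.89, adjusted p = 0.36), on the compared libraries alone (0.18) and without any 1 of 4 single libraries (0.059 to 0.14). Nle1 loss did not pass the test with Apc intact (-0.44 ± 0.26 on day 1, -0.56 ± 0.26 on day 2). The day 2 interaction of Lgr5, -2.01 ± 0.36, did (adjusted p = 0.0043). Lgr5 rose in the double knockout over NlecKO by 2.12 ± 0.26 on day 1 and 0.82 ± 0.26 on day 2 (adjusted p = 6.2e-06 and 0.014), and the day 2 call ended without any 1 of 3 libraries (0.056 to 0.058). Rspo1, which encodes an R-spondin, reached at most 1.39 CPM and passed no test.

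Tnfrsf11b (ENSMUSG00000063727) encodes osteoprotegerin, a secreted decoy that binds RANKL (Tnfsf11) and TRAIL (Tnfsf10). It was the least abundant of the 4, and its order of groups differed between days. On day 1 it stood at 7.53, 3.83 and 3.36 CPM in the double knockout, 3.36, 2.69 and 2.26 in ApccKO, 0.348, 0.296 and 0.105 in NlecKO, and 0.273, 0.219 and 0.0983 in Control. The double knockout touched ApccKO at 3.36 CPM as printed but did not overlap it, and 1 mouse with 7.53 CPM stood above the rest. The day 2 values were 5.48, 4.56 and 4.31 CPM in the double knockout, 10.6, 13.7 and 14.2 in ApccKO, 0.68, 0.539 and 0.891 in NlecKO, and 0, 0.222 and 0.0535 in Control. ApccKO was then the highest group with no overlap, and Control the lowest.

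The decoy receptor's log2 change in ApccKO over Control was 3.8 ± 0.48 on day 1 (4.09 without the 3 libraries) and 6.81 ± 0.49 on day 2. These ratios set 174 estimated reads over 3 ApccKO libraries against 11 in Control on day 1, and 855 in ApccKO against 7 in Control on day 2, so their base is thin. Leaving out single libraries moved the day 2 value between 6.36 and 8.56, the higher one without Control replicate 2, which holds most of the Control reads. The change of the double knockout over NlecKO was 4.28 ± 0.45 on day 1 (4.5 without the 3 libraries) and 2.75 ± 0.38 on day 2.

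In Apc-lost crypts the estimated change of Tnfrsf11b with Nle1 loss was positive on day 1, resting largely on 1 mouse, and negative on day 2. The double knockout was higher than ApccKO on day 1, by 0.82 ± 0.33 (0.75 without the 3 libraries). Without its replicate 1, the mouse at 7.53 CPM, this was 0.36. On day 2 the double knockout was lower, by a log2 change of -1.42 ± 0.32. With Apc intact, NlecKO over Control gave 0.34 ± 0.66 with overlap on day 1 and 2.63 ± 0.6 with no overlap on day 2, where NlecKO held 46 reads and Control 7. That day 2 value moved between 2.19 and 4.39 with single libraries left out. The difference between the effects of Nle1 loss was 0.48 ± 0.74 on day 1 (0.41 without the 3 libraries) and -4.06 ± 0.67 on day 2. ApccKO was higher on day 2 than on day 1, by 2.21 ± 0.33 (1.92 without the 3 libraries), as was NlecKO, by 1.49 ± 0.52, and neither the double knockout nor Control was separate between days.

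RNA of Tnfsf10, which encodes osteoprotegerin's ligand TRAIL, was detected in the same crypts and was lowest where both genes were lost. On day 1 Tnfsf10 stood at 20, 20.8 and 16.6 CPM in the double knockout, 39, 41.7 and 39.3 in ApccKO, 57.3, 48.1 and 43 in NlecKO and 51.7, 50.8 and 51.8 in Control. Tnfsf10 on day 2 stood at 13.9, 8.95 and 11.3 CPM in the double knockout, 31.4, 28.7 and 37.1 in ApccKO, 44.4, 44.3 and 22.9 in NlecKO and 65.5, 62.1 and 71.5 in Control. The double knockout was below every other group on each day. Tnfsf10 fell in the double knockout relative to ApccKO, by 1.06 ± 0.19 on day 1 and 1.5 ± 0.2 on day 2 (adjusted p = 0.0015 and 1e-05). The day 1 call ended without the 3 libraries (-0.94, adjusted p = 0.22). It fell on day 2 in ApccKO relative to Control by 1.03 ± 0.19 (adjusted p = 0.00011), and in NlecKO relative to Control by 0.84 ± 0.19 (adjusted p = 0.0048, and 0.11 on the compared libraries alone). RANKL, from Tnfsf11, was at 0 reads in most libraries and was not tested.

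Tnfrsf12a (ENSMUSG00000023905) encodes Fn14, a small receptor for the ligand TWEAK that signals through TRAF adaptors and is known for induction in injured and regenerating tissue. It was higher with loss of either gene and highest with loss of both. On day 1 it stood at 61.8, 55.9 and 65.3 CPM in the double knockout, 37.1, 36.4 and 31.5 in ApccKO, 15.4, 19.6 and 21.5 in NlecKO and 7.81, 10.4 and 9.93 in Control. The 4 groups did not overlap. Day 2 values were 67.2, 81.5 and 88.8 CPM in the double knockout, 40.4, 49.9 and 37.3 in ApccKO, 17.6, 34.2 and 50.9 in NlecKO and 4.07, 6.49 and 5.94 in Control. The double knockout lay above all other groups and Control below them, while NlecKO spread widely (coefficient of variation 49.6%) and overlapped ApccKO.

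For Fn14, the log2 change in NlecKO over Control was 1 ± 0.27 on day 1, a ratio of 2.01, and 2.63 ± 0.28 on day 2, a ratio of 6.2. In ApccKO over Control it was 1.9 ± 0.27 and 2.94 ± 0.28 on days 1 and 2, with ratios of 3.73 and 7.65, and the day 1 change was 2 without the 3 libraries. With Apc already lost, the loss of Nle1 gave 0.8 ± 0.25 on day 1 (0.66 without the 3 libraries) and 0.9 ± 0.25 on day 2. With Nle1 already lost, the loss of Apc gave 1.69 ± 0.26 on day 1 (1.66 without the 3 libraries) and 1.2 ± 0.25 on day 2. On the log2 scale the combined loss differed from the sum of the single losses by -0.2 ± 0.36 on day 1 (-0.34 without the 3 libraries) and by -1.74 ± 0.37 on day 2. Control itself was lower on day 2 than on day 1, with no overlap and a log2 change of -0.76 ± 0.28. TWEAK, its ligand, was not analysed here.

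Tnfrsf21 (ENSMUSG00000023915) encodes death receptor 6, which carries a death domain and is known to bind the amyloid precursor protein App. It differed least in size and most evenly between mice, and it followed Nle1 more than Apc. On day 1 it stood at 51, 47.9 and 56.3 CPM in the double knockout, 40.8, 44.6 and 43.9 in ApccKO, 51.6, 51 and 57.6 in NlecKO and 40.1, 32.9 and 32.8 in Control. On day 2 it stood at 57.4, 59.5 and 62.9 CPM in the double knockout, 36.6, 36.7 and 37.3 in ApccKO, 52.4, 55.9 and 65.6 in NlecKO and 34.7, 25.3 and 35.1 in Control. On each day both groups without Nle1 lay above both groups with it, and the double knockout and NlecKO overlapped.

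Death receptor 6 RNA was 1.51 times as high in NlecKO as in Control on day 1 (log2 change 0.6 ± 0.11) and 1.83 times as high on day 2 (0.87 ± 0.11). With Apc lost, Nle1 loss gave 0.26 ± 0.11 on day 1 (0.27 without the 3 libraries) and 0.7 ± 0.11 on day 2. ApccKO over Control was smaller, at 0.29 ± 0.11 on day 1 (0.23 without the 3 libraries) and 0.22 ± 0.11 on day 2, although the groups did not overlap. The double knockout over NlecKO gave -0.05 ± 0.11 on day 1 (-0.1 without the 3 libraries) and 0.05 ± 0.11 on day 2. The interaction was -0.33 ± 0.16 on day 1 (-0.32 without the 3 libraries) and -0.17 ± 0.16 on day 2.

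RNA of App, which encodes the ligand of death receptor 6, was abundant and followed Apc. It stood at 1840, 1790 and 1730 CPM in the double knockout, 1400, 1520 and 1450 in ApccKO, 578, 662 and 829 in NlecKO and 432, 440 and 458 in Control on day 2. The 4 groups were in that order with no overlap. App rose in ApccKO over Control by 1.5 ± 0.095 on day 1 and 1.72 ± 0.096 on day 2 (adjusted p = 1.2e-09 and 7e-11). Apc loss on top of Nle1 loss raised it by 1.58 ± 0.096 and 1.37 ± 0.095 on days 1 and 2 (adjusted p = 7e-10 and 3.8e-09). Nle1 loss raised it on day 2 by 0.64 ± 0.094 with Apc intact (adjusted p = 0.00015), a call that ended on the compared libraries alone (0.068). With Apc lost it rose by 0.29 ± 0.093 on day 2 (adjusted p = 0.019), and this call ended without any 1 of 3 libraries (0.057 to 0.082) and with a stricter filter (0.056). On day 1 neither effect of Nle1 loss on App passed (adjusted p = 0.14 with Apc lost and 0.48 with Apc intact).

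**Figure D2:**
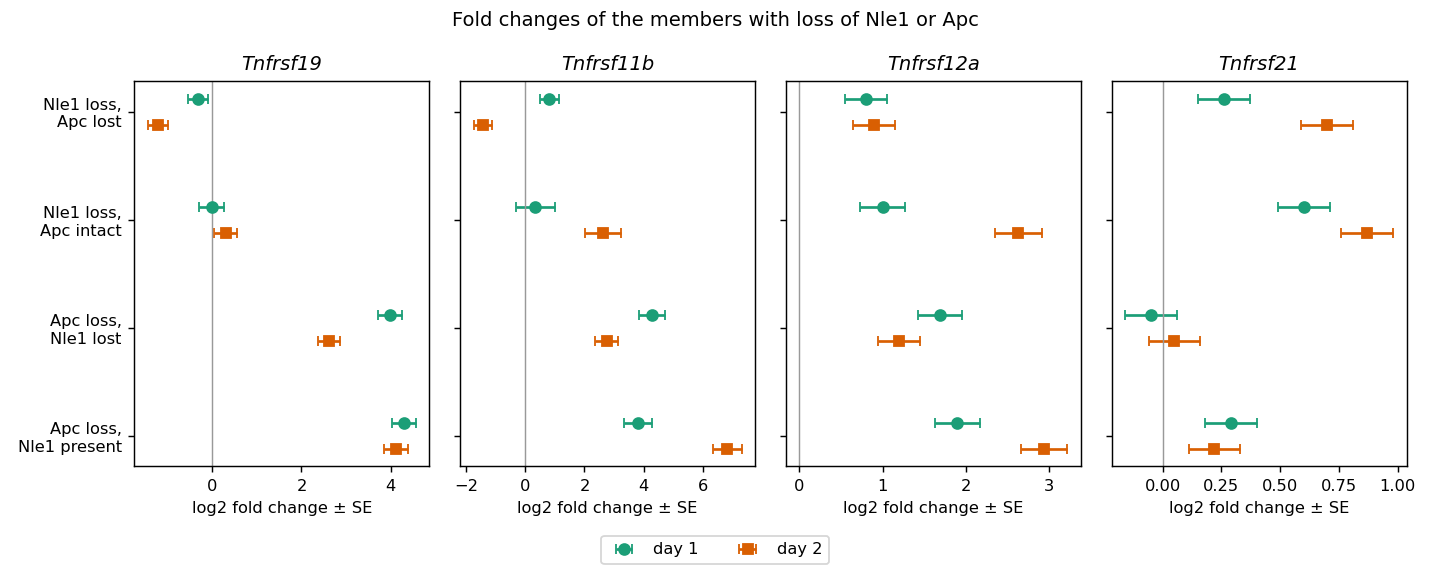
Log2 fold change with 1 SE (n = 3 mice per group) of each receptor for the loss of Nle1 or of Apc in each state of the other gene, on day 1 (circles) and day 2 (squares); each panel has its own horizontal scale. Apc loss gives the long shifts of Tnfrsf19 and Tnfrsf11b, up to 4.3 and 6.81, Tnfrsf12a is to the right of 0 throughout, and for Tnfrsf21 Nle1 loss with Apc intact gives the largest shift within each day, 0.6 on day 1 and 0.87 on day 2.

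Set side by side, the 4 receptors had different orders of groups. For Tnfrsf19 the top 3 groups (ApccKO on day 2, ApccKO on day 1, double knockout on day 1) each overlapped the next, the double knockout on day 2 stood alone, and the 4 Apc-intact groups overlapped in a chain at the bottom. For Tnfrsf11b, ApccKO on day 2 stood alone at the top, followed by the double knockout of both days, which overlapped, then ApccKO on day 1 and NlecKO on day 2, each separate, and 3 overlapping groups at the bottom. For Tnfrsf12a NlecKO on day 2 overlapped ApccKO of both days and NlecKO on day 1, and the other neighbours in the order of means were separate. For Tnfrsf21 the 4 Nle1-lost groups overlapped in a chain at the top, ApccKO on day 1 was separate from its neighbours, and ApccKO on day 2 and both Controls overlapped in a chain. The 3 NlecKO mice of day 2 held the same mouse as highest for all 4 receptors, replicate 3, which also had the highest App and the lowest Tnfsf10 of the 3.

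By length-adjusted level, Tnfrsf12a had the highest mean of the 4 in 7 of the 8 groups. On day 2 it averaged 129 ± 19 TPM in the double knockout, 79.2 ± 11 in ApccKO, 50.6 ± 25 in NlecKO and 9.01 ± 2.5 in Control (SD, n = 3 each), and in that Control group Tnfrsf21 averaged 11 ± 1.4 TPM, within the spread of Tnfrsf12a. Tnfrsf21 averaged 20.8 ± 0.96 TPM in the double knockout, 14.7 ± 0.28 in ApccKO and 18.4 ± 2.4 in NlecKO on that day. Tnfrsf19 averaged 15.7 ± 2.5 TPM in the double knockout, 42.2 ± 6.8 in ApccKO, 2.31 ± 0.49 in NlecKO and 2.2 ± 0.85 in Control. Tnfrsf11b averaged 2.18 ± 0.27 TPM in the double knockout, 6.71 ± 0.92 in ApccKO, 0.292 ± 0.074 in NlecKO and 0.0439 ± 0.056 in Control. Tnfrsf21 had more TPM than Tnfrsf19 in the Apc-intact groups and in the double knockout on day 2, and less in ApccKO on both days and in the double knockout on day 1.

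The number of receptors whose groups did not overlap is set beside the share of all 16552 genes without overlap, and nothing is read from it since the values chose the members. On day 1 it was 2 of 4 for NlecKO against Control (21.1% of all genes), 4 for ApccKO against Control (58.5%), 3 for the double knockout against ApccKO (28%) and 3 for the double knockout against NlecKO (57.5%). On day 2 it was 3 (29.8%), 4 (63.6%), 4 (53.2%) and 3 (58.3%) in the same comparisons. Between days it was 1 for NlecKO (13.1%), 3 for ApccKO (35.8%), 3 for the double knockout (24.8%) and 1 for Control (12.5%). Comparisons within a day share libraries, so they are not separate evidence.

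Markers of other cell types moved between the same groups. Summed over 20 immune markers, day 2 libraries held 109 to 131 CPM in the double knockout, 54.2 to 63.5 in ApccKO, at least 499 in NlecKO and 363 to 618 in Control. The stromal sum of day 2 was 26.2 to 41.3 CPM in the double knockout, 15.1 to 23.2 in ApccKO, 42.1 to 67.7 in NlecKO and 28.6 to 48.8 in Control. Both sums were lower in ApccKO than in Control, where all 4 receptors were higher. On day 1 the stromal sum was 51.7 to 65.9 CPM in NlecKO against 31.5 to 34 in Control, and it was higher there together with Tnfrsf12a and Tnfrsf21. The 12 enterocyte markers summed to 31500 to 46500 CPM in NlecKO against 13600 to 31900 in Control on day 1, with overlap. None of the 12 had an edgeR adjusted p under 0.05 in that comparison. The part of these cells in the NlecKO differences was not tested.

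The other TNF receptors, of which 22 of 24 listed passed the filter, were not used to choose the 4 and could be tested. Their list, like those below, was drawn up with earlier results of these data known. Here a gene counts as called when edgeR's quasi-likelihood test gives an adjusted p under 0.05 over all 16552 genes. In the double knockout against ApccKO on day 2, 12 of 22 were called, 10 higher and 2 lower, against 34.9% of all genes called, 19.5% higher and 15.4% lower. The median log2 change of the 22 was 0.25, against 0.06 over all genes. Tnfrsf10b, the mouse TRAIL death receptor, rose by 1.64 ± 0.13, Eda2r, a receptor of ectodysplasin A2 and known p53 target, by 3.18 ± 0.3, the death receptor Fas by 2.52 ± 0.28 and Tnfrsf18 (GITR) by 1.7 ± 0.23. The adjusted p-values were 4.4e-08, 4.9e-07, 1.5e-06 and 1.4e-05. The 10 called higher also include Tnfrsf9 (1.52 ± 0.43) and Tnfrsf13b (2.07 ± 0.53), with adjusted p of 0.0094 and 0.0039. Tnfrsf13b held 8 reads in ApccKO and 32 in the double knockout. Of 20 immune markers, 11 were called higher and 0 lower in the same comparison, with a median log2 change of 1.02. The part of immune cells in the count of receptors called higher was not tested.

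With Apc intact, Nle1 loss raised Eda2r and Tnfrsf10b on both days. On day 2, 6 of 22 were called in NlecKO against Control, 4 higher and 2 lower, against 15.6% of all genes, 7.33% higher and 8.26% lower, with a median of 0.47 against 0.003 over all genes. DESeq2 called 8 higher and 2 lower, and the compared libraries alone gave 2 higher and none lower. Eda2r stood at 35.4, 39.5 and 63 CPM in NlecKO and at 1.74, 3.86 and 3.8 CPM in Control, a rise of 3.85 ± 0.32 (adjusted p = 1e-06). From day 1 to day 2, Eda2r in Control itself fell, by a log2 change of -1.83 ± 0.31 with no overlap, while NlecKO changed by 0.3 ± 0.27. Tnfrsf10b rose by 1.17 ± 0.13 (adjusted p = 1.2e-05) and Tnfrsf18 by 1.63 ± 0.24 (0.00017), and Tnfrsf14, the receptor of LIGHT, fell by 0.8 ± 0.15 (0.0011). The calls of Tnfrsf18 and Tnfrsf14 ended on the compared libraries alone, at adjusted p = 0.053 and 0.072. On day 1, only Eda2r (1.72 ± 0.28, adjusted p = 0.007) and Tnfrsf10b (0.64 ± 0.13, adjusted p = 0.016) of the 22 were called, against 2.48% of all genes, while DESeq2 called 5, all higher, and the compared libraries alone none. Eda2r's call ended without Control replicate 3 (0.051) and on the compared libraries alone (0.065). Tnfrsf10b's ended without any 1 of 3 libraries (0.067 to 0.094) and on the compared libraries alone (0.12).

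On day 1 the double knockout against ApccKO called 6 of the 22 other receptors, 5 higher and 1 lower, against 10.7% of all genes. Tnfrsf10b rose by 0.97 ± 0.13, Fas by 1.76 ± 0.27, Eda2r by 1.84 ± 0.28 and Tnfrsf18 by 1.45 ± 0.23, with adjusted p up to 0.00051. Without the 3 libraries set apart edgeR called none of the 22, at log2 changes of 0.79, 1.41, 1.52 and 1.26 in the same order and adjusted p of 0.15 to 0.22. With all libraries 7 were higher and 1 lower with p under 0.05 before adjustment, and DESeq2 called 5 higher and 1 lower.

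**Figure D3:**
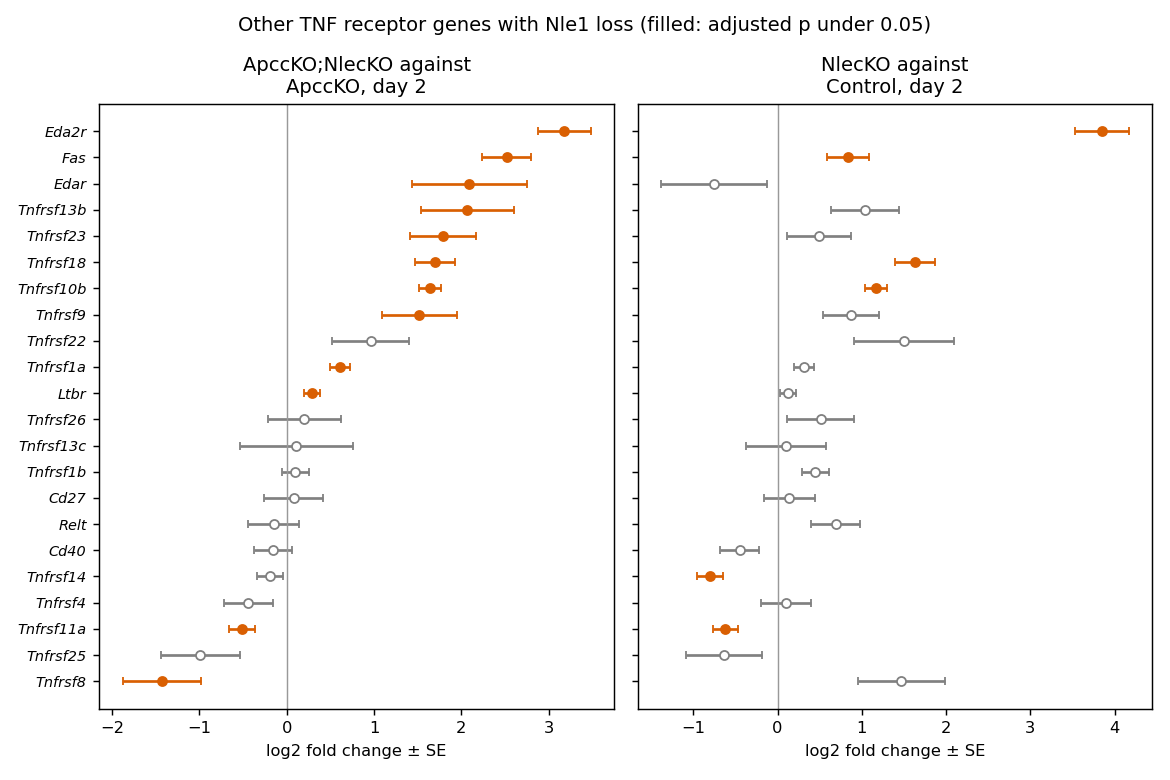
Log2 fold change with 1 SE of the 22 other TNF receptor genes on day 2 for Nle1 loss, with Apc lost (left) and Apc intact (right), sorted by the left panel; filled points have an adjusted p under 0.05. Eda2r is far right in both panels, at 3.18 and 3.85, and 10 genes on the left and 4 on the right are called higher.

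Loss of Apc moved the other receptors in both directions. In ApccKO against Control 13 of 22 were called on day 1, 6 higher and 7 lower, against 49.7% of all genes. Tnfrsf8 (CD30) rose by 3.77 ± 0.45 and Tnfrsf1b, the second TNF receptor, by 1.06 ± 0.16, while Tnfrsf14 fell by 1.03 ± 0.15 and Fas by 1.82 ± 0.27 (adjusted p up to 3.7e-05). Without the 3 libraries 3 were called higher and 5 lower. On day 2, 15 were called, 6 higher and 9 lower, against 58.7% of all genes. Tnfrsf1b rose by 1.34 ± 0.16, and Tnfrsf14 fell by 1.23 ± 0.15, Fas by 1.75 ± 0.28 and Tnfrsf9 (4-1BB, known from T cells) by 2.41 ± 0.41 (adjusted p up to 4.5e-05). The immune marker sum was lower in the same groups, and its part in the fall of Tnfrsf9 and Tnfrsf14 was not tested.

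Apc loss in crypts without Nle1 (the double knockout against NlecKO) called 13 of the 22 on day 1 (7 higher and 6 lower, against 52.6% of all genes, and 6 of each without the 3 libraries) and 12 on day 2 (5 higher and 7 lower, against 47.8%). On day 1 Tnfrsf1b rose by 1.04 ± 0.16 and Tnfrsf22, a decoy TRAIL receptor in mouse, by 3.01 ± 0.56, while Tnfrsf1a, the main TNF receptor, fell by 0.78 ± 0.12 and Ltbr by 0.5 ± 0.094 (adjusted p up to 0.00024). Tnfrsf22 has low counts and its symbol stands on 2 rows of the table, of which 1 was used, so its value is uncertain. On day 2 Tnfrsf1b rose by 0.99 ± 0.16 and Tnfrsf10b by 0.75 ± 0.13, and the lymphocyte receptors Tnfrsf9 and Cd27 fell by 1.76 ± 0.35 and 1.45 ± 0.32 (adjusted p up to 0.001).

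Whether the effect of Nle1 loss depended on Apc was tested by the interaction. On day 1 edgeR called 2 of all genes (0.0121%) and none of the 22 other receptors, with 2 having p under 0.05 before adjustment and 0 by DESeq2. On day 2 it called 868 of all genes (5.24%) and 2 of the 22. Fas had an interaction of 1.68 ± 0.37 (adjusted p = 0.012): it stood at 11.1, 12.9 and 12.2 CPM in the double knockout and 1.26, 3.34 and 1.72 in ApccKO, and at 12.1, 13.1 and 12.9 in NlecKO and 10.3, 4.86 and 6.31 in Control. On the compared libraries alone its adjusted p was 0.061. Tnfrsf8 had -2.9 ± 0.69 (adjusted p = 0.017), at under 2 CPM in every day 2 library, and its call ended without double knockout replicate 3 (0.054).

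Among the TNF ligands, 11 of 18 passed the filter. ApccKO against Control called 7 on day 1, 2 higher and 5 lower, and 10 on day 2, 4 higher and 6 lower, against 49.7% and 58.7% of all genes, with medians of -0.36 and -1.03 against -0.01 and 0.02 over all genes. On day 1 Tnf, at 0.926 to 1.77 CPM in ApccKO, rose by 3.14 ± 0.6 and Tnfsf9 (4-1BB ligand) by 1.54 ± 0.27, and Fasl, the Fas ligand, fell by 2.27 ± 0.36 and Tnfsf13 (APRIL) by 0.87 ± 0.2 (adjusted p up to 0.0016). Tnf held 8 estimated reads over all Control libraries of day 1 and 15 over those of NlecKO, so its day 1 rises over either group have a thin base. On day 2 Tnf rose by 2.83 ± 0.43 and Tnfsf9 by 1.77 ± 0.27, and Fasl fell by 2.32 ± 0.36 and Tnfsf13 by 1.77 ± 0.21 (adjusted p up to 1.7e-05). With Nle1 lost, Apc loss called 7 on day 1 (3 higher, 4 lower) and 8 on day 2 (2 higher, 6 lower), against 52.6% and 47.8% of all genes. Without the 3 libraries the day 1 ligand counts were 2 higher and 3 lower for ApccKO against Control, and again 3 higher and 4 lower for the double knockout against NlecKO. On day 1 Tnfsf10 fell by 1.37 ± 0.19, Tnfsf13 by 1.22 ± 0.21 and Fasl by 1.46 ± 0.36, and Tnf rose by 2.29 ± 0.54 (adjusted p up to 0.0019). On day 2 Tnfsf13 fell by 1.99 ± 0.21, Tnfsf10 by 1.7 ± 0.2, Fasl by 2.17 ± 0.34 and Ltb, a lymphotoxin subunit, by 1.55 ± 0.31 (adjusted p up to 0.00047). In ApccKO against Control, 15 of 20 immune markers were called lower on day 1 and 16 on day 2, and 0 higher. Their median log2 changes were -1.77 and -2.45. For the double knockout against NlecKO it was 10 and 14 lower and 1 higher on each day, with medians of -0.89 and -1.33. The part of immune cells in the falls of the ligands was not tested.

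For loss of Nle1 with Apc lost, only Tnfsf10 was called on day 1 (10.7% of all genes, and no ligand without the 3 libraries), and Tnfsf10 and Tnf on day 2 (34.9%), where Tnf fell by 1.8 ± 0.4 (adjusted p = 0.0016). In NlecKO against Control only Tnfsf10 was called, on day 2 (15.6% of all genes). On day 1 edgeR called none of the 11 ligands, with 0 having p under 0.05 before adjustment and 0 by DESeq2, which gave 6 of them no adjusted p. The day 2 interaction of Tnf was -2.54 ± 0.61 (adjusted p = 0.019, and 0.05 without ApccKO replicate 3). On day 1 no ligand had a called interaction by edgeR, with 1 having p under 0.05 before adjustment and 1 called by DESeq2.

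Downstream of the receptors, all 30 adaptors and signalling genes passed the filter. ApccKO against Control called 16 on day 1 (3 higher, 13 lower) and 17 on day 2 (5 higher, 12 lower), shares of 53.3% and 56.7% near the 49.7% and 58.7% of all genes, with median log2 changes of -0.18 on both days. Cflar, the inhibitor of caspase 8, fell by 0.9 ± 0.11 and Tradd, the TNF receptor adaptor, by 0.73 ± 0.11 on day 1, with Birc3, an inhibitor of apoptosis, at -0.81 ± 0.15 and Traf3 at 0.38 ± 0.068 (adjusted p up to 0.00019). On day 2 Cflar fell by 0.78 ± 0.11, Tradd by 0.66 ± 0.11 and the deubiquitinase gene Cyld by 0.54 ± 0.09, and Ikbkb, an IkB kinase, rose by 0.58 ± 0.089 (adjusted p up to 3.6e-05). Against NlecKO, the double knockout had 17 called on day 1 (5 higher, 12 lower) and 19 on day 2 (8 higher, 11 lower), against 52.6% and 47.8% of all genes. Without the 3 libraries the day 1 adaptor counts were 3 higher and 10 lower for ApccKO against Control and 5 higher and 12 lower for the double knockout against NlecKO. On day 1 Cflar was at -0.84 ± 0.11, Tab3 at -0.69 ± 0.12, Tradd at -0.58 ± 0.11 and Sharpin at -0.38 ± 0.083, and on day 2 Cflar was at -0.64 ± 0.11, Tradd at -0.42 ± 0.11, Ikbkb at 0.4 ± 0.089 and Rbck1 at 0.45 ± 0.093 (adjusted p up to 0.0028).

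For Nle1 loss, the double knockout against ApccKO had 2 of the 30 adaptors called on day 1, both higher, against 10.7% of all genes, and none of the 30 without the 3 libraries. On day 2 it had 9, 6 higher and 3 lower, a share of 30% against 34.9% of all genes. Rbck1, a subunit of the linear ubiquitin ligase LUBAC, rose by 0.53 ± 0.093 on day 1 (adjusted p = 0.0012, and 0.27 without the 3 libraries) and 0.74 ± 0.093 on day 2 (adjusted p = 6e-06). Traf4 rose by 0.46 ± 0.11 on day 1 (adjusted p = 0.014, with 0.43 without the 3 libraries, 0.081 without ApccKO replicate 2 and 0.065 on the compared libraries alone) and 0.83 ± 0.11 on day 2 (1.7e-05). Ikbkb fell by 0.5 ± 0.089 and Chuk, its partner kinase, rose by 0.52 ± 0.14 on day 2 (adjusted p = 0.00022 and 0.0056). In NlecKO against Control on day 2, Rbck1 (0.36 ± 0.093) and Casp8 (0.39 ± 0.1) were called higher and Tab1 (-0.3 ± 0.083) and Ikbkb (-0.31 ± 0.089) lower, with adjusted p of 0.012 to 0.02, a share of 13.3% against 15.6% of all genes. Each of these 4 calls ended without NlecKO replicate 3 or without 1 Control library (0.065 to 0.16) and on the compared libraries alone (0.086 to 0.17). On day 1 edgeR called none of the 30, with 4 having p under 0.05 before adjustment and 1 by DESeq2. The interaction called none on day 1 (1 with p under 0.05 before adjustment, 0 by DESeq2) and Traf4 on day 2, at 0.61 ± 0.16 (adjusted p = 0.03). That call ended without any 1 of 8 libraries (0.06 to 0.098), on the compared libraries alone (0.08) and with a stricter filter (0.059).

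NF-kB subunits and target genes, 21 of 25 passing the filter, had most calls in ApccKO against Control on day 2. There 16 were called, 13 higher and 3 lower, against 58.7% of all genes, 29.2% higher and 29.4% lower, with a median log2 change of 0.64 against 0.02 over all genes. The chemokine gene Cxcl10 rose by 4.62 ± 0.6, the IkB-like Bcl3 by 1.5 ± 0.2 and the subunit gene Rela by 0.85 ± 0.12, and Sod2, mitochondrial superoxide dismutase, fell by 0.76 ± 0.084 (adjusted p up to 3.8e-06). On day 1, 9 were called, 5 higher and 4 lower, a share of 42.9% against 49.7% of all genes, and 5 higher and 2 lower without the 3 libraries. Rela rose by 0.66 ± 0.12 and Rel by 0.69 ± 0.19, and Sod2 fell by 0.55 ± 0.083 and Tnfaip2 by 2.15 ± 0.56 (adjusted p up to 0.0051, with Tnfaip2 at 0.089 without the 3 libraries). Against NlecKO, the double knockout had 8 called on day 1 (5 higher, 3 lower) and 13 on day 2 (9 higher, 4 lower), shares of 38.1% and 61.9% against 52.6% and 47.8% of all genes, with 4 higher and 3 lower on day 1 without the 3 libraries. On day 1 Cxcl10 rose by 2.41 ± 0.48, Rela by 0.56 ± 0.12 and Rel by 0.9 ± 0.19, and Tnip1, an A20-binding inhibitor, fell by 0.88 ± 0.18 (adjusted p up to 0.00068). On day 2 Cxcl10 rose by 2.27 ± 0.47, Rela by 0.75 ± 0.12 and Icam1, an adhesion molecule, by 1.92 ± 0.38, and Sod2 fell by 0.44 ± 0.083 (adjusted p up to 0.00058).

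In NlecKO against Control 5 NF-kB genes were called on day 2, all higher, a share of 23.8% against 15.6% of all genes called and 7.33% called higher. The compared libraries alone gave 3. They included the chemokine gene Cxcl16 (2.11 ± 0.37, adjusted p = 0.00089), Icam1 (1.83 ± 0.41, 0.0054), and the subunits Nfkb2 (0.62 ± 0.15, 0.0066) and Relb (0.55 ± 0.14, 0.0093) of the non-canonical arm. On the compared libraries alone Icam1 was at 0.053 and Nfkb2 at 0.1, and Nfkb2 was at 0.065 without NlecKO replicate 3. On day 1 edgeR called none of the 21, with 5 having p under 0.05 before adjustment and 2 by DESeq2. In the double knockout against ApccKO 4 were called on day 1, all higher, and 7 on day 2, 4 higher and 3 lower, shares of 19% and 33.3% against 10.7% and 34.9% of all genes. On day 1 these were Tnfaip2 (2.27 ± 0.55), Cxcl16 (1.44 ± 0.35), Cxcl10 (1.74 ± 0.45) and Icam1 (1.35 ± 0.38), with adjusted p of 0.011 to 0.031. On the compared libraries alone Cxcl10 was at 0.081 and Icam1 at 0.09. Each of these 4 calls ended when 1 of up to 4 single libraries was left out (0.05 to 0.18) and without the 3 libraries (0.32 to 0.68). On day 2 Nfkb1 fell by 0.3 ± 0.059, and Sod2 rose by 0.34 ± 0.084, Cxcl16 by 1.37 ± 0.34 and Nfkb2 by 0.54 ± 0.14 (adjusted p up to 0.0064, with Nfkb2 at 0.052 without ApccKO replicate 1). For the interaction edgeR called none of the 21 on either day, with 2 having p under 0.05 before adjustment on day 1 and 6 on day 2, and DESeq2 called 0 and 2.

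The genes with profiles most like each receptor were found by the root mean square difference between centred log2 CPM means over the 8 groups, among 10119 genes with a mean of at least 5 CPM (10120 for Tnfrsf11b, which is itself below it). For Tnfrsf19 these were Nkd1 (0.31), Pla2g5 (0.37) and Fam89a (0.38), against a range of 4.38 in the receptor's own group means. For Tnfrsf12a they were Dyrk3 (0.17), Homer3 (0.25) and Hs3st1 (0.27), against a range of 3.84. For Tnfrsf21 they were Praf2 (0.11), Plk3 (0.12) and Pin4 (0.13), against a range of 0.93. Tnfrsf11b had no gene as close, with Ecscr at 0.56, Thbs1 at 0.61 and Clu at 0.64 against a range of 6.26. Between the receptors themselves the smallest difference was 0.78, for Tnfrsf19 and Tnfrsf11b, and the largest was 2.08, for Tnfrsf21 and Tnfrsf11b. These are descriptions over group means from shared libraries.

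**Figure D4:**
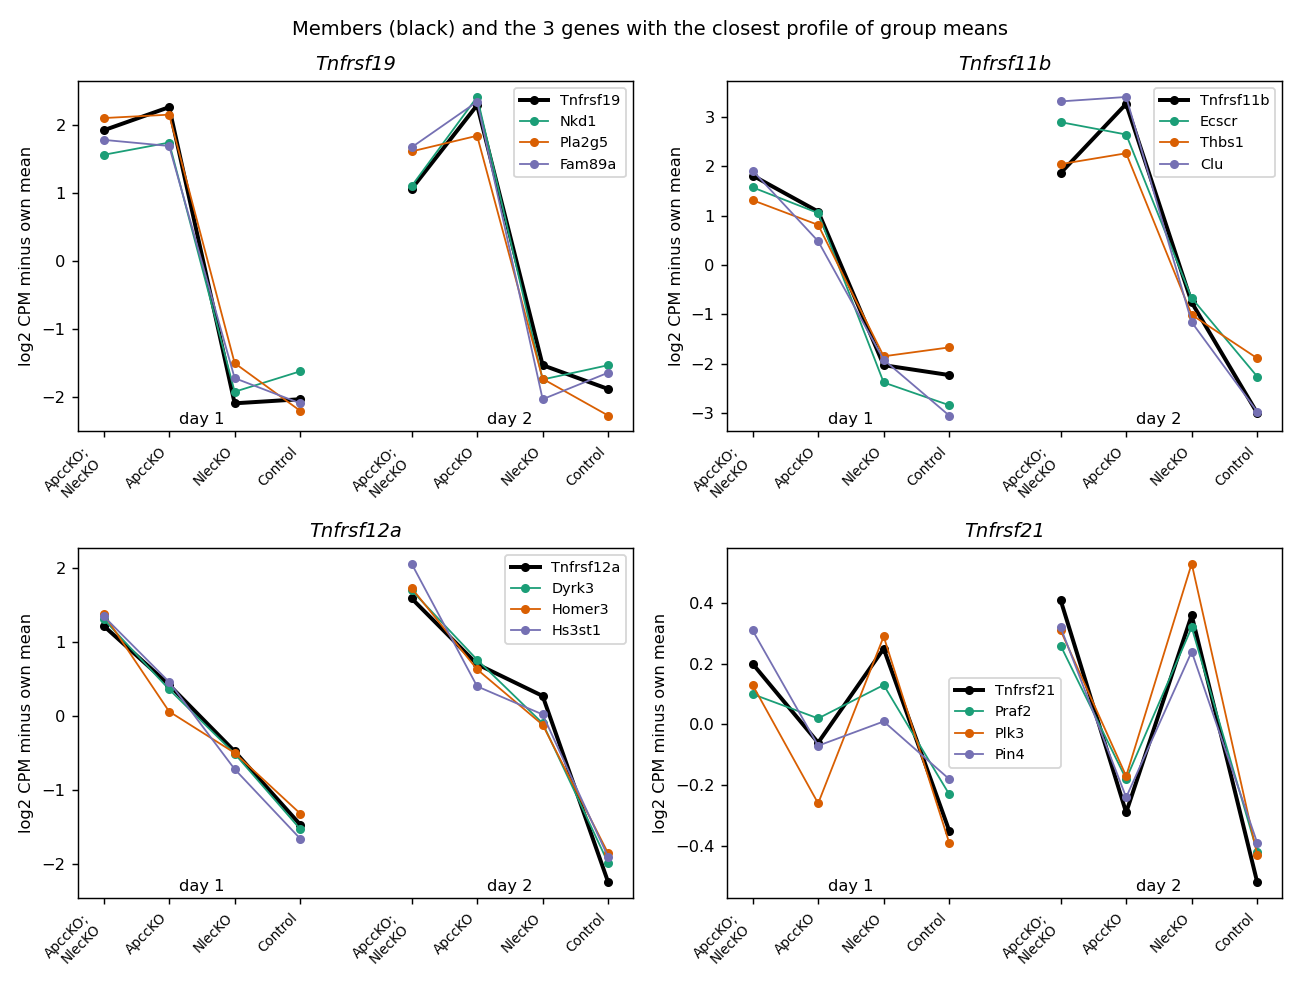
Group means of log2 CPM, each gene centred on its own mean, for each receptor (black) and its 3 closest genes (colours), by genotype on day 1 and day 2 (n = 3 mice per mean). The curves of Tnfrsf12a and Dyrk3 nearly coincide (0.17), while those nearest to Tnfrsf11b stay further from it (0.56 to 0.64).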

How the data were processed

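Polyadenylated RNA of jejunal crypts from 24 mice was analysed, and groups and replicate numbers came from the labels. The deposited table holds estimated counts per gene, made by the authors with kallisto 0.43 for genome build mm9, per the submitters' processing notes, which also name DESeq2 and DESeq. A deposited TPM table served to compare levels between genes. Its annotation is not given in the sources used here. The deposited normalised values were not used.

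Estimated counts were rounded and filtered by edgeR 4.0.16 (limma 3.58.1, R 4.3.3) with a minimum count of 10, which kept 16552 genes. The robust quasi-likelihood model had 1 mean per group over all 24 libraries, TMM scaling, Benjamini-Hochberg adjusted p-values over every tested gene, called under 0.05. CPM used TMM library sizes, and log2 CPM a prior count of 2. The biological coefficient of variation was 17.6%, and precision is limited by 3 mice per group. The procedure was tested on simulated data.

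The receptors and all gene lists were chosen with earlier results of these data known. Of 169 list names, 168 matched. Named genes are the receptors, their partners, up to 4 called genes per list and comparison with the smallest p, and the 3 closest profiles with settled symbols. Upstream sequences are RefSeq's on GRCm38.p6, another build than that of the counts. Alternatives were DESeq2 1.42.0, its size factors, other filters, only the compared libraries, a replicate block, and leaving out libraries. Replicate numbers showed no clear pairing of mice, though the check cannot exclude it.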

Additional observations from a re-analysis of the deposited data

Results flagged for a closer look

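On day 2 the effect of Nle1 loss differed between Apc-lost and Apc-intact crypts, by the tested interaction, for 5 named genes that are not among the 4 receptors. The log2 differences were -2.01 for Lgr5, 1.68 for Fas, -2.9 for Tnfrsf8, -2.54 for Tnf and 0.61 for Traf4. Lgr5 had the smallest adjusted p of these, 0.0043, and the calls of the other 4 each ended under at least 1 alternative, as given with their values.

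For 2 receptors the Nle1-lost mice of day 2 lay on opposite sides of their comparison mean with Apc lost and with Apc intact. Tnfrsf19 was below the ApccKO mean in all 3 double knockout mice and above the Control mean in all 3 NlecKO mice. The effects of Nle1 loss differed by -1.52 on the log2 scale. NlecKO and Control overlapped, with the lowest NlecKO mouse at 6.35 CPM against a Control mean of 6.3. The change of Tnfrsf19 with Apc intact, 0.3 ± 0.26, thus shows no clear rise. Tnfrsf11b lay on the same sides, with a difference of -4.06 and no overlap of NlecKO and Control. These differences were not tested, since the values chose the receptors.

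Tnfrsf11b was above the ApccKO mean in all 3 double knockout mice of day 1 and below it in all 3 of day 2. The log2 change was -1.42 on day 2. On day 1 it was 0.82, and 0.36 without replicate 1 of the double knockout. This difference between days was not tested either.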

How the results depend on the processing

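Scaling moved the median log2 change of all genes by at most 0.044. Counts of called genes depended most on day 1 and on small contrasts. For NlecKO against Control on day 1 (411 genes), no filter gave 266, the compared libraries alone 6 and DESeq2 805. For the double knockout against ApccKO on day 1 (1763), the compared libraries alone gave 535, and leaving out the 3 libraries set apart gave 33, which leaves 1 ApccKO library, assumed to vary like the other groups. For NlecKO against Control on day 2 (2581) the compared libraries alone gave 279. For the day 1 interaction (2), DESeq2 size factors, the stricter filter of 2 CPM in 3 libraries and the replicate block gave 0, the compared libraries alone 1 and DESeq2 51. The cause was not tested, except that the compared libraries alone are fewer samples.

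Leaving out 1 library at a time gave 29 to 1159 genes for NlecKO against Control on day 1 and 1206 to 2818 on day 2, 599 to 2148 for the double knockout against ApccKO on day 1, 0 to 10 for the day 1 interaction and 374 to 1222 for that of day 2 (868 with all). Log2 changes ranged over 3.79 to 4.31 for Tnfrsf19 (double knockout against NlecKO, day 1), 0.08 to 0.3 for Tnfrsf21 (ApccKO against Control, day 2), 2.19 to 4.39 for Tnfrsf11b (NlecKO against Control, day 2), 6.36 to 8.56 (ApccKO against Control, day 2) and -5.81 to -3.61 (interaction, day 2). For Tnfrsf12a they ranged over 2.23 to 2.94 (NlecKO against Control, day 2), 0.89 to 1.6 (double knockout against NlecKO, day 2) and -2.04 to -1.33 (interaction, day 2).

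The replicate numbers gave no clear sign of pairing. Of 24 same-numbered pairs across compared groups, 7 had deviations correlated over 0.1 (range -0.26 to 0.26) and 10 matched their own number best. These pairs reuse the same libraries, so the check cannot exclude pairing. The replicate block changed the count of the day 1 interaction by over 1.5 times (0 against 2) and moved no other count by as much. Depth limits Tnfrsf11b most, with 7 reads over the 3 Control libraries of day 2.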
